A study of Mus musculus with 4 samples.

Results

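The genes described here are 36 members of the pathway that runs from phosphoinositide 3-kinase (PI3K) through the kinase AKT to the growth regulator mTOR and the FOXO transcription factors. They were taken by name, each matched as a single gene symbol to the array's probe sets, and where a gene had several probe sets the one with the highest mean signal over the 4 arrays was used. They are 36 of 19938 genes measured this way. RNA came from duplicate proliferating cultures, A and B, of each of 2 kinds of mouse erythroid cells, with 1 Affymetrix Mouse Gene 1.0 ST array per culture. MEL cells are a murine erythroleukemia line, here the single clone DS19, which stably carried a transgene joining Gata-1 to ER (estrogen receptor) and was grown in DMEM with FBS, L-glutamine and puromycin. ES-EP are untransformed erythroid progenitors obtained from embryonic stem cells, and were kept in StemPro34 medium with Epogen (erythropoietin), hIGF-1, dexamethasone, murine SCF and mercaptoethanol. Cell type, the transgene and the medium changed together, so their parts in any difference cannot be told apart. The question was how the RNA levels of this pathway compare between leukemic and normal erythroid progenitors.

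PI3K is switched on by receptors for growth factors and cytokines, among them those for SCF, erythropoietin and IGF-1, and converts a membrane phosphoinositide into the lipid messenger PIP3. PIP3 brings AKT to the membrane, where the kinase PDK1 and the mTOR-containing complex mTORC2 phosphorylate it. Active AKT releases the brake on a further mTOR complex, mTORC1, which drives protein synthesis, and it phosphorylates FOXO factors so that they leave the nucleus. In erythroid progenitors this route is known for carrying survival and proliferation signals, and nuclear Foxo3 for its part in red cell maturation. All of these are steps of protein modification, whereas the arrays measured RNA.

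Signals are log2 values, so that a difference of 1 is 2-fold, and differences are MEL minus ES-EP. The MEL arrays had medians over all probe sets of 5.68 and 5.67, the ES-EP arrays of 5.81 and 5.84, and duplicates correlated at r = 0.998 in each cell type over genes, which are not independent replicates. As a rough level of signal without expression, the 95th percentile of 1027 olfactory receptor genes was 5.19 in MEL and 5.56 in ES-EP. The labelled cell types were checked with marker lists. Of 7 erythroid markers measured, all lay above that level in both cell types, with 1 higher and 5 lower in MEL. The higher 1 was Gata1 (2.21-fold), and the part of the Gata-1 transgene of MEL in its signal was not tested. Among the 5 lower, Slc4a1 (5.93 and 5.82 in MEL, 11.25 and 11.44 in ES-EP) was 44.3-fold lower and Alas2 8.69-fold lower. Of 7 mast cell markers 6 were lower in MEL, and their summed linear signal was 275 to 282 in MEL against 2767 to 3027 in ES-EP, although Fcer1a, Cpa3, Cma1 and Mcpt8 lay at or under the level in both. That sum was carried by Ms4a2 (4.08 and 3.83 in MEL, 11.15 and 10.96 in ES-EP) and Hdc (7.32 and 7.29 in MEL, 9.25 and 9.30 in ES-EP), the 2 markers at least 2-fold apart. Of 4 megakaryocyte markers 3 were higher and 1 lower in MEL, with sums of 1124 to 1211 in MEL against 282 to 288 in ES-EP. Of the neutrophil and monocyte markers 5 of 6 lay at or under the level in both cell types, as did 2 of 3 T cell, 3 of 3 B cell and 3 of 4 embryonic stem cell markers. Of 4 fibroblast markers 0 lay under it in MEL and 1 did in ES-EP, with sums of 322 to 328 in MEL against 343 to 366 in ES-EP. The part of these markers' cell types in the results was not tested.

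The pathway was expressed in both cell types. None of the 36 genes lay near background in both, only Deptor did so in ES-EP, and 34 lay above the median of all genes. At an adjusted p of 0.05 or less (limma, Benjamini-Hochberg over all genes), 17 genes were higher and 9 lower in MEL, and 10 were not called. Over all genes 63.8% were called, 20.5% as higher and 43.2% as lower in MEL. Over the 13117 genes above the olfactory level in either cell type 68.7% were called, 28.7% as higher and 40.0% as lower. The 72.2% of pathway genes called was therefore close to the share of other expressed genes. The split of 17 higher to 9 lower stood beside 3762 higher to 5247 lower among the expressed genes, a contrast that was not tested. Fewer cells of a kind and less RNA per cell cannot be told apart in such bulk samples, and the p-values reflect no more than the variation among duplicate cultures of each line.

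At least 2-fold differences were found for 7 genes, Foxo1, Pik3c2b, Akt1, Inpp4a, Pik3cd, Gsk3a and Deptor, all of them higher in MEL. That is 19.4% of the pathway, against 10.0% of all genes and 14.8% of those above the olfactory level. Over all genes, 5.72% were at least 2-fold higher and 4.27% at least 2-fold lower in MEL. Without ES-EP array A the count was 5, since Pik3cd and Gsk3a then differed by 0.96 and 0.90. The 2 arrays of MEL did not overlap with the 2 of ES-EP for 30 of the 36 genes, which is near the 81.8% of all genes for which this was so. The median difference was 0.18 over the pathway, -0.15 over all genes and -0.06 over all genes at or above the median signal.

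**Figure D1:**
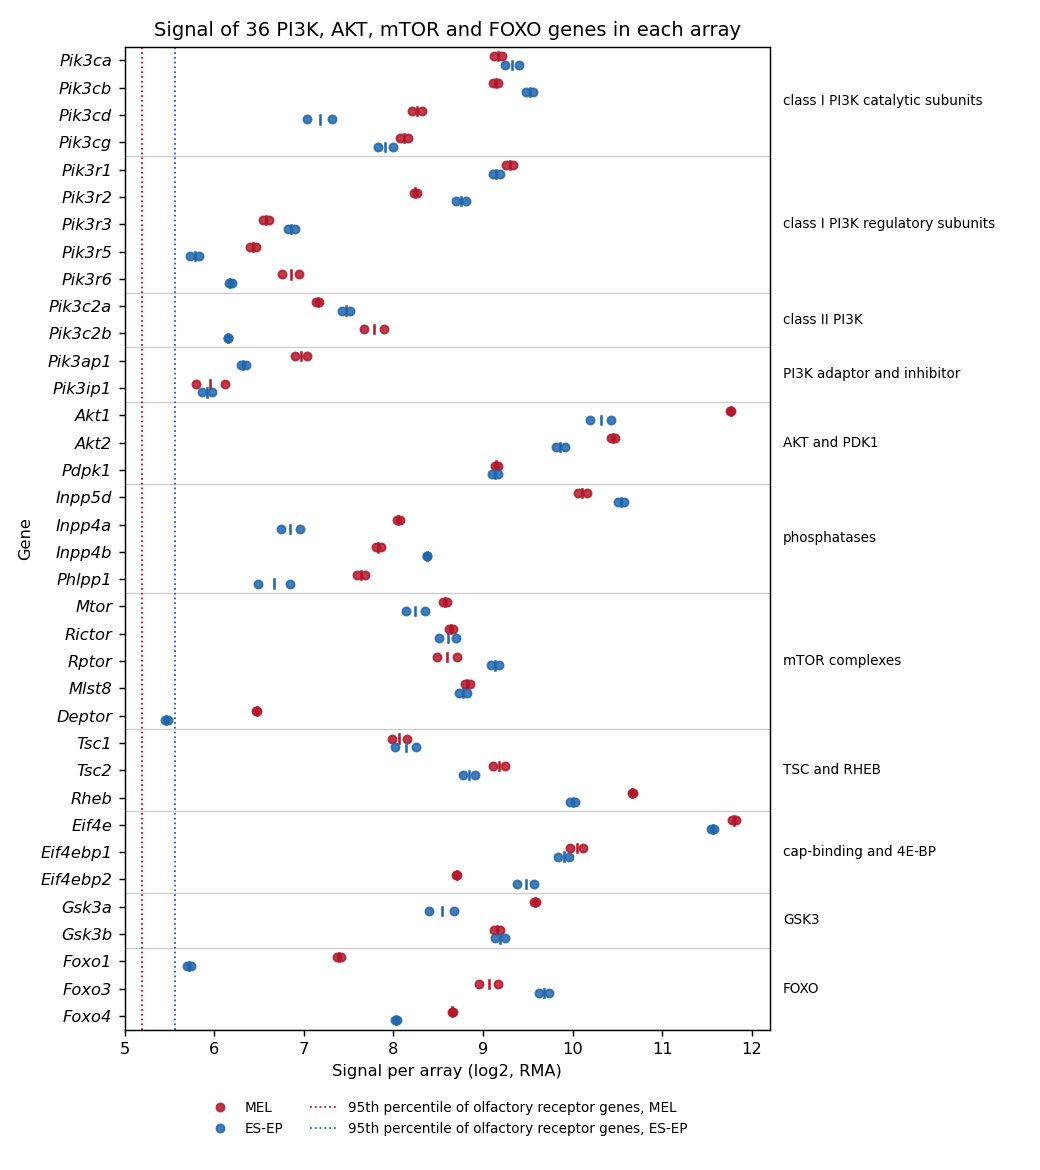
Log2 signal of each of the 36 genes (rows, grouped by role) in each array, with MEL in red above ES-EP in blue. Points are single arrays, short bars are group means, and dotted lines mark the olfactory receptor level of each cell type (5.19 in MEL and 5.56 in ES-EP). Levels of different genes come from different probes and are not comparable along a column.

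Of the 4 class I catalytic subunits, which make PIP3, 1 was higher, 1 lower and 2 were not called. Pik3cd, which encodes the p110δ subunit of blood cells, had signals of 8.32 and 8.21 in MEL, against 7.04 and 7.31 in ES-EP. Both MEL arrays lay above both ES-EP arrays, and the difference of 1.09 ± 0.10 (SE) was 2.13-fold (adjusted p = 6.27e-06). Pik3cb, the widely expressed p110β, went the other way, with 9.17 and 9.11 in MEL against 9.48 and 9.56 in ES-EP, and was 1.3-fold lower in MEL (adjusted p = 0.00234). Pik3ca, for p110α, had 9.21 and 9.12 in MEL against 9.24 and 9.40 in ES-EP, a difference of -0.16 ± 0.09 that was not called (adjusted p = 0.143). Pik3cg, for the p110γ subunit that responds to G protein-coupled receptors, averaged 8.12 ± 0.06 in MEL and 7.91 ± 0.11 in ES-EP (SD, n = 2 each). Its difference of 0.20 missed the threshold (adjusted p = 0.0644), with a 95% interval from 0.01 to 0.40.

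Of the 5 regulatory subunits, 2 were higher, 2 lower and 1 was not called. Pik3r5 and Pik3r6 encode the p101 and p84 partners of p110γ, and both were higher in MEL. Pik3r5 had 6.40 and 6.47 in MEL against 5.83 and 5.73 in ES-EP (1.58-fold, adjusted p = 6.3e-05), and Pik3r6 had 6.95 and 6.76 in MEL against 6.20 and 6.16 in ES-EP (1.59-fold, adjusted p = 9.43e-05). In ES-EP both signals were within 1 log2 unit of the olfactory level. Pik3r1, Pik3r2 and Pik3r3 encode the p85-type subunits that hold p110α, p110β and p110δ at phosphorylated receptors. Pik3r2 (p85β) was 1.43-fold lower in MEL, at 8.26 and 8.23 against 8.70 and 8.81 in ES-EP (adjusted p = 0.000348). Pik3r3 (p55γ) was 1.22-fold lower, at 6.54 and 6.61 against 6.82 and 6.90 in ES-EP (adjusted p = 0.0105). This smaller difference lost its call without MEL array A (adjusted p = 0.0795) or without ES-EP array B (0.0536). Pik3r1 (p85α) had 9.26 and 9.34 in MEL against 9.11 and 9.19 in ES-EP, a difference of 0.15 that was not called (adjusted p = 0.138).

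The class II kinases, which make other 3-phosphoinositides, differed in opposite directions. Pik3c2b had 7.89 and 7.67 in MEL, while both ES-EP arrays held 6.15, a difference of 1.64 ± 0.09 or 3.11-fold (adjusted p = 1.12e-07). Its deposited values were identical in the ES-EP arrays, as they were for 113 of 35557 probe sets there and for 8 in MEL. Pik3c2a was lower in MEL, at 7.14 and 7.17 against 7.42 and 7.52 in ES-EP, which is 1.24-fold (adjusted p = 0.00687, and 0.0525 without MEL array A). Of the genes that act on the kinase from outside, Pik3ap1 (BCAP), an adaptor that couples receptors of B cells and myeloid cells to PI3K, was 1.56-fold higher in MEL, at 7.03 and 6.90 against 6.35 and 6.30 in ES-EP (adjusted p = 7.96e-05). Pik3ip1, a membrane protein that inhibits PI3K, was not called, with 6.12 and 5.79 in MEL overlapping 5.86 and 5.97 in ES-EP (difference 0.04, adjusted p = 0.768).

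AKT was higher in MEL in both of its measured forms. Akt1 had 11.77 and 11.76 in MEL against 10.20 and 10.43 in ES-EP, a difference of 1.45 ± 0.09 or 2.73-fold (adjusted p = 3.39e-07). The gap between cell types was far wider than that between duplicates. Akt2 had 10.47 and 10.43 in MEL against 9.81 and 9.92 in ES-EP, or 1.5-fold (adjusted p = 0.000142). A further Akt2 probe set gave 10.48 and 10.39 in MEL against 9.60 and 9.64 in ES-EP, a difference of 0.82 in the same direction, and with p-values adjusted over all probe sets the 2 were at 0.0059 and 0.00219. A pseudogene copy, Akt2-ps, is annotated, and whether its RNA adds to either signal was not tested. By number the brighter set, used here for Akt2 (10374364), falls near those of chromosome 11 genes such as Igfbp1 (10374223). The further set (10551393) falls near those of chromosome 7, where Akt2 lies, such as Cd79a (10551025). Which locus each set reads was not tested. Pdpk1, which encodes the kinase PDK1 that activates AKT, lay within the spread of the duplicates, with 9.13 and 9.17 in MEL against 9.10 and 9.17 in ES-EP (difference 0.02, 95% interval -0.16 to 0.19, adjusted p = 0.869).

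All 4 phosphatases that limit the pathway were called, 2 in each direction. Inpp4a, which removes the 4-phosphate from PI(3,4)P2, had 8.07 and 8.04 in MEL against 6.74 and 6.96 in ES-EP and was 2.31-fold higher (adjusted p = 1.38e-06). Inpp4b, its paralog with the same reaction, was 1.45-fold lower in MEL, at 7.86 and 7.80 against 8.37 in both ES-EP arrays (adjusted p = 0.000187). Phlpp1, which dephosphorylates AKT, was 1.95-fold higher in MEL, at 7.59 and 7.68 against 6.49 and 6.85 in ES-EP (adjusted p = 3.78e-05). The ES-EP duplicates were further apart for Phlpp1 than for any other of the 36 genes, and its difference was 0.78 without ES-EP array A and 1.14 without ES-EP array B. Inpp5d (SHIP1), the phosphatase of blood cells that takes the 5-phosphate off PIP3, was 1.35-fold lower in MEL, at 10.16 and 10.06 against 10.51 and 10.57 in ES-EP (adjusted p = 0.00106).

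The study mapped binding of the transcription factor PU.1 along the genome (ChIP-Seq). It reported PU.1 at a majority of the genes that it assigned to PI3K/Akt signaling, in both ES-EP and MEL. From fetal liver progenitors with normal or low PU.1, it also reported that PU.1 raises the expression of many genes stimulating the pathway. Its binding was counted over a wider stretch around the start than the windows below, so the letter matches given here are not a recount of it. Those binding maps were not used here. The gene of PU.1, Spi1, had 10.09 in both MEL arrays against 8.94 and 9.13 in ES-EP, a 2.08-fold difference (adjusted p = 3.1e-06). Promoter sequences of RefSeq on GRCm38.p6, which run from 250 bases before to 50 bases after a start, were held for 32 of the 36 genes, in 46 windows of 300 bases. They were searched on both strands for the PU.1 box GAGGAAGT, the ETS site CCGGAAGT, the FOXO site GTAAACA, the GATA site AGATAA and the SP1 site GGGGCGGGG. The PU.1 box and the ETS site share their last 6 letters. The PU.1 box stood in 3.2% of all 32851 windows, and among the pathway genes in those of Inpp5d and Pik3cg. These promoters are shown because they are the 2 with the box, and the 2 genes did not move alike, since Inpp5d was lower in MEL and Pik3cg was not called. The windows are chr1:87620062-87620361 on the plus strand for Inpp5d and chr12:32208421-32208720 on the minus strand for Pik3cg. Capitals mark the box at -20 to -13 from the start in Inpp5d. In Pik3cg, shown for the lower coordinate of its overlapping annotated starts, they mark it, read on the opposite strand, at -191 to -184, and a FOXO site at -92 to -86.
Inpp5d: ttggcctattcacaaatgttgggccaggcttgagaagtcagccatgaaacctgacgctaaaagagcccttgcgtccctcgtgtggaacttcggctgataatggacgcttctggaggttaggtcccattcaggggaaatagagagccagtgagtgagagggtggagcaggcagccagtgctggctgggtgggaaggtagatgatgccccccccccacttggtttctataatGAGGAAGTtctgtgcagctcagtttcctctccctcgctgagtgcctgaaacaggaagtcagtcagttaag
Pik3cg: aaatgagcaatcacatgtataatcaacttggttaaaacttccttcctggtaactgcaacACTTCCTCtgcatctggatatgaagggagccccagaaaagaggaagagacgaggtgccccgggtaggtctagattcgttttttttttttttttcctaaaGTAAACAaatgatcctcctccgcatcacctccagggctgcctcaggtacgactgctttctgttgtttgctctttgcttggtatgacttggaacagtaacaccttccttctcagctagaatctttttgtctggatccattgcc
The FOXO site stood in 3.65% of all windows and, among the pathway genes, in those of Akt1 and Pik3cg. The ETS site stood in 3.89% of windows and in those of Mtor, Pik3ca and Tsc2, and the GATA site in 11.2% and in those of Pik3cd and Tsc1. A match is a stretch of letters and was not tested for binding, and a gene without a match may still be bound.

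The mTOR complexes were mixed. Mtor itself, the kinase, was 1.25-fold higher in MEL, at 8.60 and 8.55 against 8.14 and 8.35 in ES-EP (adjusted p = 0.0101). The call was lost without MEL array A (0.0799), MEL array B (0.0537) or ES-EP array A (0.0739). Rptor, the scaffold that defines mTORC1, was 1.45-fold lower in MEL, at 8.71 and 8.49 against 9.09 and 9.18 in ES-EP (adjusted p = 0.000641). Rictor, the scaffold that defines mTORC2, had 8.62 and 8.67 in MEL, which lay between the 8.51 and 8.70 of ES-EP (difference 0.04, 95% interval -0.16 to 0.24, adjusted p = 0.701). Mlst8, a subunit of both complexes, was also within the duplicates' spread, at 8.85 and 8.80 in MEL against 8.73 and 8.82 in ES-EP (difference 0.05, adjusted p = 0.595). Deptor, an inhibitor that binds mTOR in both complexes, had 6.48 and 6.47 in MEL against 5.48 and 5.45 in ES-EP, or 2.02-fold (adjusted p = 1.47e-06). Its ES-EP signal was under the olfactory level of 5.56, so the size of this difference was measured against background.

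Upstream of mTORC1, the GTPase Rheb, its direct activator, was 1.58-fold higher in MEL, at 10.67 and 10.66 against 9.97 and 10.03 in ES-EP (adjusted p = 4.34e-05). TSC1 and TSC2 form the complex that switches RHEB off. Tsc2 was 1.26-fold higher in MEL, at 9.25 and 9.11 against 8.78 and 8.91 in ES-EP (adjusted p = 0.00788), and lost the call without MEL array A (0.0835) or ES-EP array A (0.0544). Tsc1 had 8.15 and 7.98 in MEL, overlapping the 8.02 and 8.25 of ES-EP (difference -0.08, 95% interval -0.30 to 0.15, adjusted p = 0.534).

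Downstream of mTORC1 lie the cap-binding protein eIF4E, which starts translation, and the 4E-BPs, which hold it back until mTORC1 phosphorylates them. Eif4ebp2 showed the widest lower difference among the 36 genes, at 8.70 and 8.71 in MEL against 9.38 and 9.57 in ES-EP, or 1.7-fold lower (-0.77 ± 0.09, adjusted p = 3.41e-05). Eif4ebp1 was not called, with 10.12 and 9.97 in MEL just above 9.84 and 9.96 in ES-EP (difference 0.14, adjusted p = 0.189). Eif4e could not be settled. Its brightest probe set had 11.78 and 11.82 in MEL against 11.58 and 11.55 in ES-EP, 1.18-fold higher (adjusted p = 0.0235). A further probe set differed by -0.00 and the dimmest by -0.52, with 5.86 and 5.68 in MEL against 6.26 and 6.33 in ES-EP. Adjusted over all probe sets, the 3 had p-values of 0.0547, 0.984 and 0.0127, so that the only call was that of the dimmest, in the opposite direction. By number the brightest set (10599855) falls near those of chromosome X genes such as Foxo4 (10601091). The others (10496485 and 10496490) fall near those of chromosome 3, where Eif4e lies, such as Lamtor3 (10496397). Which locus each set reads was not tested, and Eif4e is counted among the 17 higher genes through the brightest alone.

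GSK3 kinases are held inactive by AKT phosphorylation, and of their 2 genes 1 was called. Gsk3a had 9.59 and 9.57 in MEL against 8.40 and 8.68 in ES-EP, 2.06-fold higher (adjusted p = 7.97e-06). Gsk3b overlapped, with 9.12 and 9.19 in MEL against 9.13 and 9.25 in ES-EP (difference -0.04, 95% interval -0.22 to 0.15, adjusted p = 0.717).

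The FOXO factors, the nuclear end of the pathway, gave both the widest difference among the 36 genes and opposite directions. Foxo1 had 7.37 and 7.41 in MEL against 5.69 and 5.74 in ES-EP, a difference of 1.68 ± 0.08 or 3.2-fold (adjusted p = 2.63e-08). The ES-EP signals lay just above the olfactory level. Foxo4 was 1.54-fold higher in MEL, at 8.66 and 8.65 against 8.04 and 8.02 in ES-EP (adjusted p = 6.2e-05). Foxo3, the member known for driving antioxidant and late erythroid genes, was 1.53-fold lower, at 9.17 and 8.96 in MEL against 9.63 and 9.74 in ES-EP (adjusted p = 0.000235). The promoters of Foxo1 and Foxo3 are shown because these genes moved apart most among the pairs of related genes described below. Both hold the SP1 site, as did 11.4% of all windows and 13 of the 46 windows of the pathway genes, which belong to 12 of the 32 genes. Foxo1 (chr3:52268087-52268386, plus strand) has it at 2 to 10 after the start, and Foxo3 (chr10:42276646-42276945, minus strand) has it, read on the opposite strand, at -104 to -96. Capitals mark these matches, and the windows were 61.3% and 75% G or C.
Foxo1: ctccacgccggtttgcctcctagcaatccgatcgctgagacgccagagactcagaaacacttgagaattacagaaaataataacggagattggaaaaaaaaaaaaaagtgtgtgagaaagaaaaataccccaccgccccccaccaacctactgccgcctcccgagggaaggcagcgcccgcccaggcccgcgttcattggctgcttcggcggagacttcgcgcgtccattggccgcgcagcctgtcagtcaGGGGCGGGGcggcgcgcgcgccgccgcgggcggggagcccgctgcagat
Foxo3: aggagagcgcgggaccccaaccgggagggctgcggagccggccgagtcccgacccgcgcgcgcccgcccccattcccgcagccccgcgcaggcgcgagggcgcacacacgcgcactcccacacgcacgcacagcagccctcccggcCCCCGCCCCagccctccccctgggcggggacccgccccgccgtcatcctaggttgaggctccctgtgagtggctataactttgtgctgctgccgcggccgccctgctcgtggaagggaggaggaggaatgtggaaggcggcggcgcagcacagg
Neither window holds the PU.1 box, the ETS site, the FOXO site or the GATA site as spelled here.

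**Figure D2:**
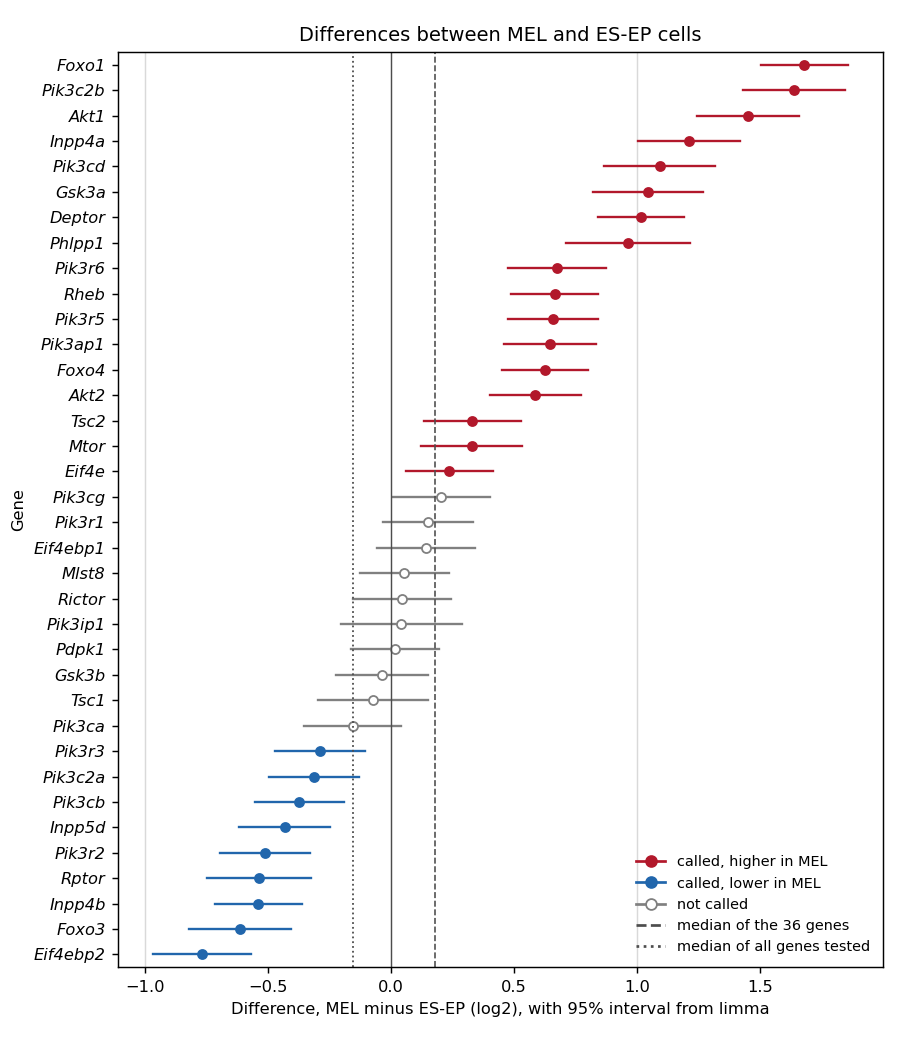
Difference of each of the 36 genes, as the MEL signal minus the ES-EP signal (log2), with its 95% interval from limma, ordered by size. Red points were called higher and blue points lower in MEL, open points were not called, and the dashed and dotted lines mark the medians of the 36 genes (0.18) and of all genes (-0.15). The range runs from 1.68 for Foxo1 to -0.77 for Eif4ebp2.

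Several pairs of related genes differed in opposite directions, and they are described here without a test. The gap between the differences of Foxo1 and Foxo3 was 2.29, and 2.14 to 2.45 over the 4 pairings of 1 MEL with 1 ES-EP array. It was 1.95 (1.77 to 2.13) between Pik3c2b and Pik3c2a, 1.75 (1.62 to 1.88) between Inpp4a and Inpp4b, and 1.46 (1.34 to 1.59) between Pik3cd and Pik3cb. Gsk3a and Gsk3b were 1.08 apart, and Akt1 and Akt2, which were both higher in MEL, 0.86. A gap of this kind does not depend on a shift common to all genes of an array.

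**Figure D3:**
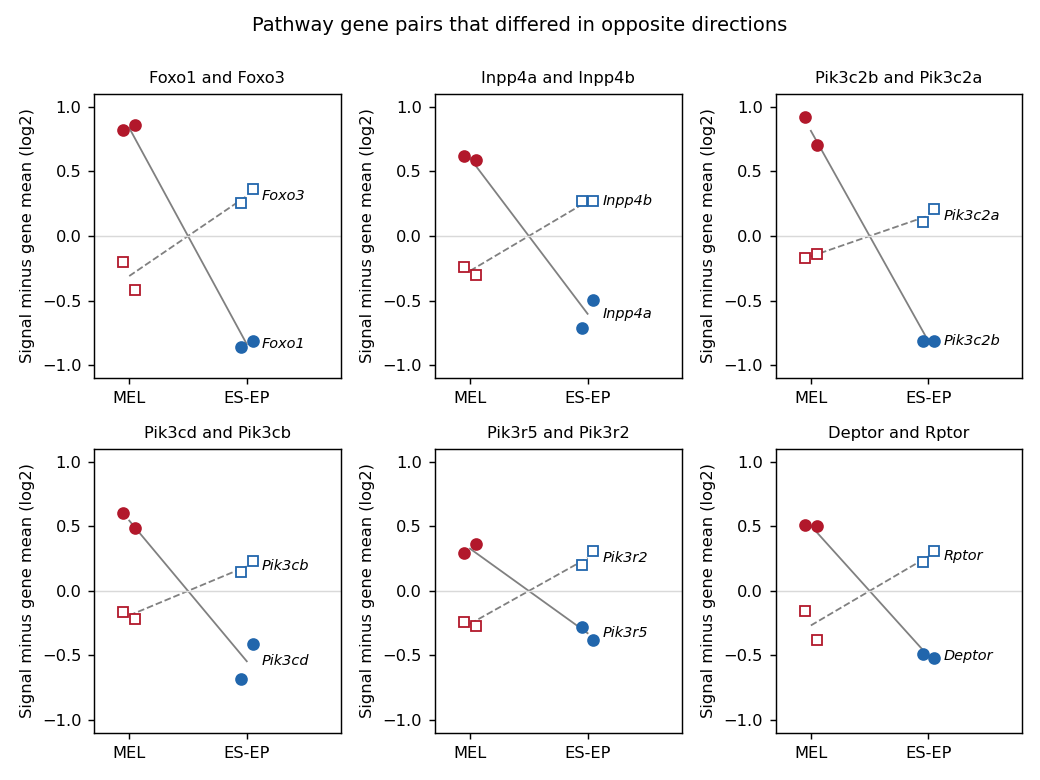
Signal of 6 pairs of pathway genes in each array, as the log2 signal minus that gene's mean over the 4 arrays, with MEL in red to the left of ES-EP in blue. Filled circles and solid lines show the gene higher in MEL, open squares and dashed lines the gene lower in MEL, and lines join group means. In each pair the lines cross, as for Foxo1 and Foxo3, whose differences were 1.68 and -0.62.

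Of 49 other genes of the pathway, 44 were measured, and 10 were higher, 17 lower and 17 not called. The 61.4% called was close to the 63.8% of all genes, and the split became 14 higher and 11 lower with array medians centred. That centring gave 5757 higher and 5644 lower over all genes. As deposited, the median difference of the 44 was -0.10, beside -0.15 over all genes. Gab2 and Gab1 encode adaptors that link receptors to PI3K, and Gab2 showed the widest difference of the list. It had 7.49 and 7.46 in MEL against 9.83 and 9.90 in ES-EP, 5.23-fold lower in MEL (adjusted p = 1.57e-09), and Gab1 was 2.62-fold lower, at 8.40 and 8.42 against 9.82 and 9.77. Sgk3, a kinase related to AKT, was 3.22-fold lower, at 7.86 and 7.95 in MEL against 9.55 and 9.63 in ES-EP. Among the genes that bring nutrient and stress signals to mTORC1, the GTPase Rragd was 3.92-fold lower, at 4.66 and 4.57 in MEL, near background there, against 6.39 and 6.78 in ES-EP. Nprl3, of the GATOR1 complex that restrains mTORC1, was 2.54-fold lower, at 7.79 and 7.63 against 8.98 and 9.13 in ES-EP. Sesn3, a stress-induced inhibitor of mTORC1, was 2.76-fold higher, at 6.68 and 6.85 in MEL against 5.21 and 5.38 in ES-EP, which are under the ES-EP olfactory level.

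Of 37 genes known as FOXO targets in at least 1 tissue 35 were measured, and 5 were higher, 21 lower and 9 not called in MEL, with a median difference of -0.25. Over all genes 20.5% were called higher and 43.2% lower, with a median of -0.15. Over genes above the olfactory level in either cell type, 28.7% were called higher and 40.0% lower. The split of the targets moved with the scaling of the arrays, to 5 higher and 15 lower after quantile normalization, 8 and 13 with array medians centred, and 6 and 13 with cyclic loess. Over all genes the same rescalings gave, in that order, 5344 higher and 5974 lower, 5757 and 5644, and 5676 and 5460. At least 2-fold differences numbered 2 higher and 6 lower, or 22.9% of the 35. Over all genes the share was 10.0%, with 5.72% higher and 4.27% lower, and over those above the olfactory level it was 14.8%. Near background in both cell types lay 8 of the targets. Of those 8, Il7r, Pdk4, G6pc, Rag1 and Fasl were among the 21 called lower, and the rest were not called. Gadd45a, which acts in growth arrest and DNA repair, had 8.17 and 8.08 in MEL against 10.89 and 10.97 in ES-EP, 7.01-fold lower (adjusted p = 5.62e-10). The zinc finger factor Klf6 was 3.39-fold lower, at 6.52 and 6.48 in MEL against 8.16 and 8.36 in ES-EP. Rbl2, a relative of the retinoblastoma protein, was 2.61-fold lower, at 7.76 and 7.54 against 9.03 and 9.04 in ES-EP. The autophagy gene Map1lc3b was 2.52-fold lower, at 9.49 and 9.44 against 10.77 and 10.83 in ES-EP. The insulin receptor gene Insr went the other way, at 8.49 and 8.44 in MEL against 6.25 and 6.51 in ES-EP, 4.25-fold higher (adjusted p = 2.16e-08), as did Sesn3 above.

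Because array medians differed between the cell types, each difference was computed again after quantile normalization, centring of array medians and cyclic loess. The median of all genes moved to -0.03, -0.01 and -0.00. The calls over the 36 genes were 19 higher and 9 lower, 21 higher and 7 lower, and 19 higher and 8 lower, in that order. The pathway median stayed above that of all genes, by 0.33 as deposited and by 0.25, 0.33 and 0.26 after rescaling. As deposited, over genes at or above the median signal only, it was above by 0.23. Directions changed for Gsk3b under all 3 rescalings (0.02, 0.11 and 0.03) and for Tsc1 under centring (0.07), neither of which was called in any of these. Pik3r1 was called higher in MEL under all 3 rescalings, Pik3cg under centring and cyclic loess, Eif4ebp1 under quantile normalization and centring, and Mlst8 under centring. Pik3r3 lost its call under centring (adjusted p = 0.15) and cyclic loess (0.095), and Pik3c2a under centring (0.0947).

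**Figure D4:**
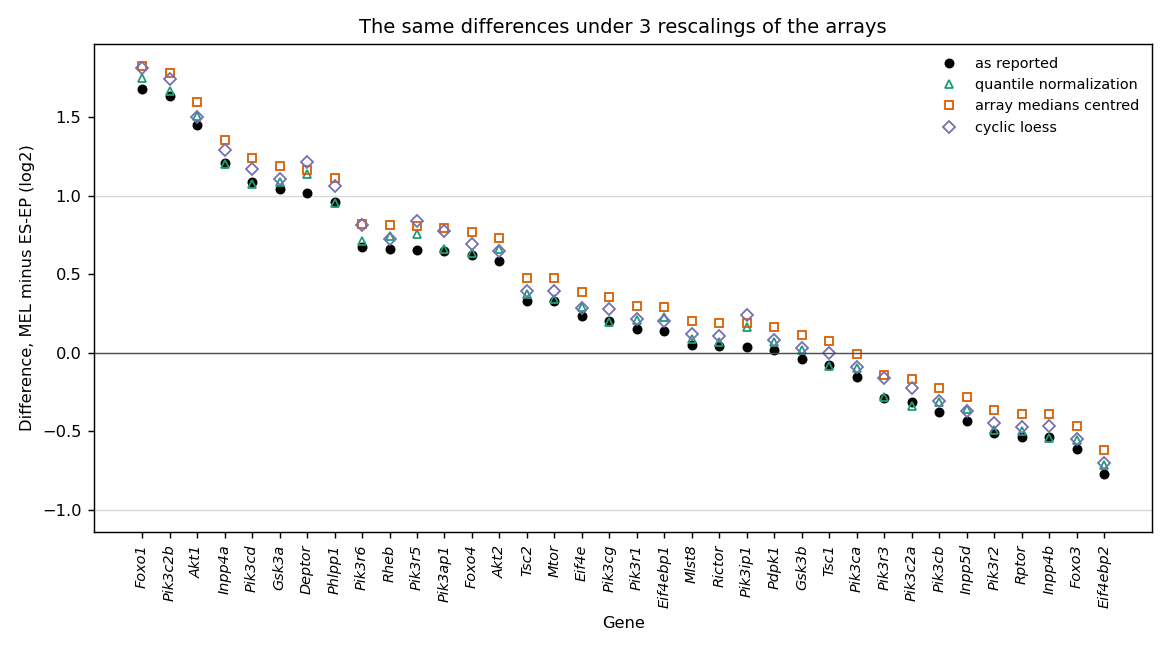
Difference of each of the 36 genes, as the MEL signal minus the ES-EP signal (log2), as deposited (black) and after quantile normalization (green triangles), centring of array medians (orange squares) and cyclic loess (purple diamonds). The points of a gene shift together by little against the spread between genes, and those near 0, such as Gsk3b and Tsc1, are the ones whose direction turns.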

How the data were processed

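Total RNA of 2 MEL and 2 ES-EP cultures was hybridised to Affymetrix Mouse Gene 1.0 ST arrays. The deposited values are log2 signals, which the authors made per the labels by RMA in GeneSpring GX (version not given in the sources used here). RMA corrects background, normalizes across arrays and summarizes probes. Array medians still differed. The labels list the genome build mm9. No column was averaged or left unused. The number of arrays limits the precision.

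Of 35557 probe sets, 21789 had a single gene symbol in the platform annotation, 1621 several and 12147 none. Grouped by symbol, the 21789 gave 19938 genes, each read from its brightest probe set. By Entrez number 21698 of these probe sets matched a current gene, which was counted but not used as a filter. Of the 36 genes 34 had 1 probe set and 2 had several.

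The main test was limma's moderated test without a block, two-sided (lmFit, then eBayes, limma 3.58.1 under R 4.3.3), with Benjamini-Hochberg adjustment over all genes at 0.05. It had 2 residual degrees of freedom and 8.2 from the prior. An exact permutation test of 2 against 2 arrays has 3 splits and a smallest p of 0.333, so it could not pass. Intervals are 95% and cover only the spread between arrays. Steps were tested on simulated data. The members and lists were chosen with earlier results of these data known. Every one of the 36 genes is named, and of the other pathway genes and the FOXO targets the 6 called genes with the largest absolute difference. Other probe sets are named where called oppositely or not called, and for Akt2, which was added after its values were seen. The text on Spi1 was added because the study is about PU.1. Genes of the lists without a single-symbol probe set (5 other pathway genes, 2 FOXO targets) and protein sequences were not analysed here. Promoters came from RefSeq (GRCm38.p6). Python 3.11.15 with pandas 2.3.3 and matplotlib 3.10.9 drew the figures.

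Rescaling was tried by quantile normalization, centred medians and cyclic loess. Further alternatives left out 1 array at a time, kept only genes at or above the median signal, averaged the probe sets of a gene, adjusted over all probe sets, used the culture letter as a replicate block, fitted eBayes with trend and robust, or required more than a 1.2-fold difference.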

Additional observations from a re-analysis of the deposited data

How the results depend on the processing

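Over all genes the calls were 4096 higher and 8622 lower in MEL as deposited, 5344 and 5974 after quantile normalization, 5757 and 5644 with array medians centred, and 5676 and 5460 with cyclic loess. The counts over the 36 genes stayed within 1.5 times of 17 higher, 9 lower and 7 at least 2-fold apart, except that 5 were lower in a test against a 1.2-fold difference. There, 14 were higher, and Pik3cb, Pik3r3, Pik3c2a, Inpp5d, Mtor, Tsc2 and Eif4e lost their calls. When the probe sets of a gene were averaged, Eif4e turned to -0.10 (adjusted p = 0.313). With adjustment over all probe sets Mtor (0.0525) and Eif4e lost theirs. Leaving out each array gave 14 to 17 higher, 7 to 9 lower and 5 to 8 at least 2-fold apart, and Eif4e was not called without MEL array A (0.0698), MEL array B (0.115) or ES-EP array B (0.0742). Pik3cg was called without ES-EP array B (0.036) and over genes at or above the median signal (0.043).

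Among the other pathway genes, 14 were higher and 11 lower with array medians centred, and 5 higher and 9 lower in the 1.2-fold test, against 10 and 17. Among the FOXO targets, against 5 higher and 21 lower, 8 were higher and 13 lower with medians centred, 13 lower with cyclic loess, 3 higher and 13 lower over genes at or above the median signal (where fewer genes were tested), 11 lower in the 1.2-fold test, and 13 to 19 lower when each array was left out. The other causes were not tested.

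The replicate block, with A and B as pairs, gave 17 higher, 9 lower and 7 at least 2-fold apart and changed no call among the 36 genes. That fit gave each of the 36 genes the same SE of 0.103, so it says little about single genes. Deviations of same-lettered arrays correlated at r = -0.04 over genes. With only 2 pairs, this cannot tell whether arrays of the same letter shared a batch. With 2 arrays per group, signals near background, such as Deptor in ES-EP, limit the size of a difference.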
